A study of Homo sapiens with 2 samples.

Results

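The human genes named MRPL or MRPS followed by a number encode most protein subunits of the mitochondrial ribosome. The 78 protein-coding genes that carry such a symbol in GENCODE release 29 were taken from 2 lists of RNA peaks, with the symbol and the gene type as the whole rule and no measured value used. They are 78 of 20048 genes with a peak in at least 1 list, and 78 of the 13209 protein-coding genes among these. Their peaks made up 600 of 100792 rows in replicate 1 and 654 of 109413 rows in replicate 2.

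Both libraries belong to a single group labelled TRACER, a word the labels do not explain. The cells were HEK293T, a transformed human embryonic kidney line, grown in DMEM with 10% FBS and given doxycycline at 3 ug/mL for 24 hours. Cytoplasmic RNA was extracted with Trizol and made into libraries with a Qiagen protocol for microRNAs. The study looked for sequences in RNA bound up with CCR4-NOT, the complex that shortens the poly(A) tails of mRNAs. No untreated, input or control library was given, the labels name no introduced gene, and nothing states that the replicates were cultured apart, which leaves their spread possibly technical.

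The mitochondrial ribosome translates the few mRNAs encoded by mitochondrial DNA, whose products sit in the respiratory chain. All of its proteins are encoded in the nucleus, translated on cytosolic ribosomes and imported, and they divide into a large subunit, which joins amino acids, and a small subunit, which reads the codons. Some have bacterial relatives and others arose in the mitochondrial lineage. Doxycycline is a tetracycline antibiotic known to act on mitochondrial translation. Without an untreated library, an effect of the drug on these genes cannot be told apart from their usual state.

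The strongest peaks found in both libraries show what kind of sequence was listed in each part of these mRNAs. A peak counted as found in both libraries when a peak of the other library overlapped it by at least 1 nt on the same strand, and overlapping peaks were merged into 1 region. A region's reads are summed over its peaks in each library, and 48 of the 414 regions held more than 1 peak of a library. Each line gives 30 bases of the GENCODE transcript, 5′ to 3′, with the 4 bases of the summit interval deposited with the peak in capitals. The regions lie, on GRCh38, at chr1:150294338-150294445 on the plus strand (MRPS21), chr12:6492864-6492930 on the minus strand (MRPL51), chr1:54200196-54200308 on the plus strand (MRPL37), chr11:59806300-59806360 on the minus strand (MRPL16), chr3:131462487-131462532 on the minus strand (MRPL3) and chr1:1402041-1402109 on the minus strand (MRPL20).
MRPS21 coding sequence: gaagttcatcgccaGGACtgtgatggtaca
MRPL51 coding sequence: cgttggaacgagaAAAGggccatgttcgga
MRPL37 5′ UTR: tccaggtggaggtcTTGAggctatcagatc
MRPL16 3′ UTR: gtgtgtagtgagtGTAGgagataactgtat
MRPL3 3′ UTR: tagattggatttgCTGAaattggtgttggg
MRPL20 3′ UTR: accactgaggactGTTGctgtattgattag

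All 78 genes had a peak found in both libraries, while 50.4 percent of all annotated protein-coding genes did. Reads below are the read numbers deposited with the peaks, summed over a gene's peaks; they are not the depth of the library. In replicate 1 the genes held 19 to 249 reads, with a median of 74, and in replicate 2 they held 22 to 293 reads, with a median of 97. The medians over all protein-coding genes with peaks were 32 and 40 reads. Together the 78 genes held 6414 reads, or 0.405% of the 1585446 reads in distinct peaks of replicate 1, and 8140 reads, or 0.489% of the 1663907 in replicate 2. Their median coding length was 588 nt, against 1275 nt over all annotated protein-coding genes, and per kb of exon they stood further above other genes. Medians were 28.0 and 35.6 reads per kb over the union of exons of all isoforms, against 6.60 and 8.11 over all protein-coding genes with exonic peaks. Over 1 representative isoform per gene the members' medians were 48.4 and 68.7 reads per kb. The cytosolic ribosomal protein genes stood far higher, with medians of 159 and 172 reads per kb of exon. RNA abundance and selection in the assay cannot be told apart in these reads.

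The libraries gave similar orders of the 78 genes. Across genes, log2 reads in replicate 1 and replicate 2 had a Pearson r of 0.864 and a Spearman rho of 0.886 (n = 78 genes, which share both libraries and are not independent replicates). Peaks of these genes recurred between the libraries: 441 of 600 peaks in replicate 1, 73.5% (exact 95% interval 69.8 to 77.0), and 449 of 654 in replicate 2, 68.7% (64.9 to 72.2), were found in the other library. The shares over all protein-coding genes were 59.2 and 54.3 percent. Cytosolic ribosomal protein genes reached 92.8% and 94.5%, and genes of complex I subunits, the other large mitochondrial assembly compared here, 82.7% and 82.6%. Intervals cover counting error only, and no test between gene sets was made.

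**Figure D1:**
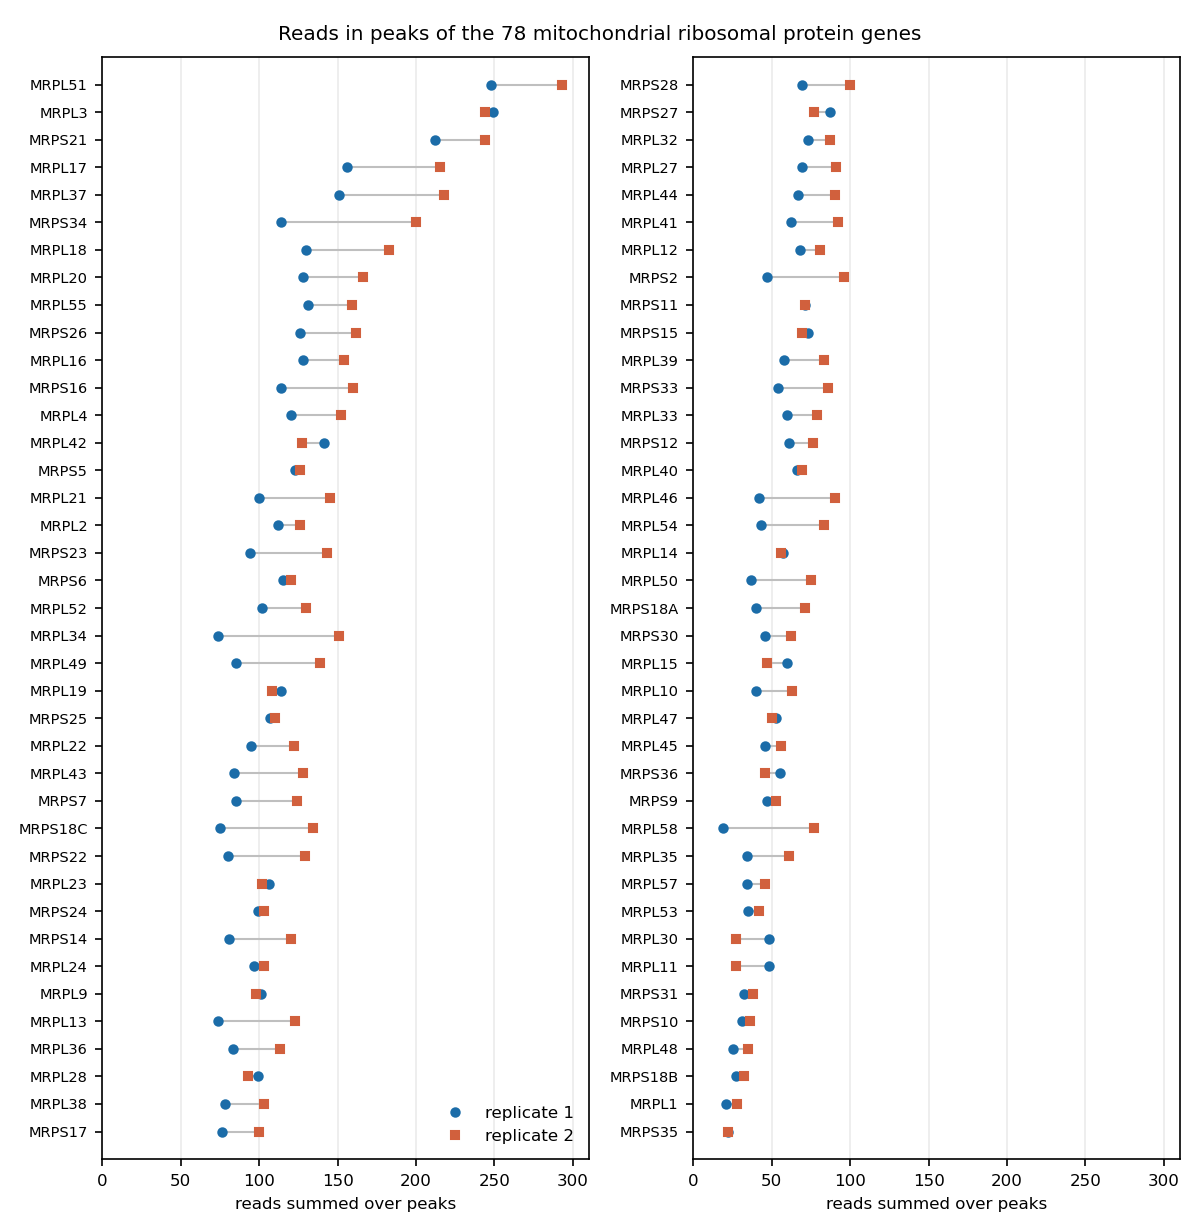
Reads summed over the peaks of each of the 78 mitochondrial ribosomal protein genes (horizontal axis, reads), ordered by mean, with replicate 1 as circles and replicate 2 as squares joined by a line. MRPL51, MRPL3 and MRPS21 stand above 200 reads in both libraries, and MRPS35 and MRPL1 lie at the low end with 22 and 22 and with 21 and 28 reads.

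Summed over peaks and not adjusted for length, MRPL51, a large-subunit protein found only in mitochondrial ribosomes, led with 248 reads in replicate 1 and 293 in replicate 2. MRPL3, a large-subunit protein with a bacterial relative, followed with 249 and 244 reads. MRPS21, a small-subunit protein with a bacterial relative, had 212 and 244 reads. These 3 genes were above every other member in both libraries. MRPL17, a large-subunit protein with a bacterial relative, had 156 and 215 reads. MRPL37, a large-subunit protein without one, had 151 and 218 reads. MRPS34, a small-subunit protein without one, had 114 and 200. MRPL18, whose bacterial relative binds the 5S rRNA, had 130 and 183 reads. MRPL20 (128 and 166), MRPL55 (131 and 159) and MRPS26 (126 and 162) completed the 10 genes with the largest share of peak reads. MRPL12, the stalk protein that contacts translation factors, entered the 10 genes highest per kb of exon, with 63.2 and 78.8 reads per kb. MRPL51 also led on that scale, with 160 and 189 reads per kb, and MRPS34 came next with 104 and 182. At the low end were MRPS35 (22 and 22 reads), MRPL1 (21 and 28) and MRPS18B (27 and 32). Across the 78 genes, which share both libraries, log2 mean reads and log2 coding length had a Pearson r of -0.138 and a Spearman rho of -0.136.

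Both subunits and both lineages of proteins were represented among the peaks. The 51 large-subunit genes had medians of 32.5 and 39.5 reads per kb of exon, and the 26 small-subunit genes had 19.2 and 25.6. The 32 subunits found only in mitochondrial ribosomes had medians of 22.4 and 32.0 reads per kb, against 32.5 and 37.3 for the 45 with a bacterial counterpart. The ranges between the quartiles of these classes overlapped in both libraries. The remaining gene, MRPS36, carries a ribosomal name but is now known as a part of the oxoglutarate dehydrogenase complex. It had 35.9 and 30.1 reads per kb, inside the range of the others.

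The members' peaks lay mainly in coding sequence. Counted by their summits on 1 representative isoform per gene, 72.1% ± 3.50 fell in coding sequence, 15.8% ± 1.42 in the 3′ UTR, 5.05% ± 0.871 in the 5′ UTR and 6.97% ± 1.21 in introns (SD, n = 2 libraries). Over all protein-coding genes these shares were 56.7% ± 1.66, 22.4% ± 0.583, 6.89% ± 0.0490 and 13.5% ± 1.01. The 3′ UTR share depended on which isoforms defined the UTRs. It was 18.8% ± 1.26 with every isoform of protein-coding type and 30.9% ± 1.32 with all isoforms, where a 3′ UTR took precedence over coding sequence. The coding shares were 69.4% ± 3.21 and 57.4% ± 3.38 on these definitions. Isoforms of other types, such as targets of nonsense-mediated decay, carry annotated 3′ UTRs over exons that protein-coding isoforms translate. In replicate 1, 73 summits with 620 reads in 20 genes, and in replicate 2, 78 summits with 839 reads in 21 genes, were 3′ UTR only through such isoforms.

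The members' 3′ UTR share was below that of all protein-coding genes on every definition, while their place among the other families was not fixed. On 1 isoform, 3′ UTR summits made up 15.8% for the mitochondrial ribosomal protein genes, 5.27% for cytosolic ribosomal protein genes and 8.28% for complex I genes, against 22.4% over all protein-coding genes. With all isoforms the shares were 30.9%, 24.4% and 32.6%, against 37.8%, so that complex I genes stood above the members there and below them on 1 isoform. Since UTR lengths differ, summits were also divided by the number that an even spread of each gene's exonic summits along its isoform would give. For the 78 genes this ratio was 1.62 ± 0.0644 in coding sequence, 0.417 ± 0.0433 in the 3′ UTR and 0.477 ± 0.0941 in the 5′ UTR. Over all protein-coding genes it was 1.32, 0.626 and 0.960. Cytosolic ribosomal protein genes had 1.68 in coding sequence and 0.172 in the 3′ UTR, and complex I genes 1.81 and 0.242. With all isoforms the members' ratios were 2.44 ± 0.109 and 0.790 ± 0.0427, and with protein-coding isoforms 2.63 ± 0.0782 and 0.564 ± 0.0426. No test between gene families was made.

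**Figure D2:**
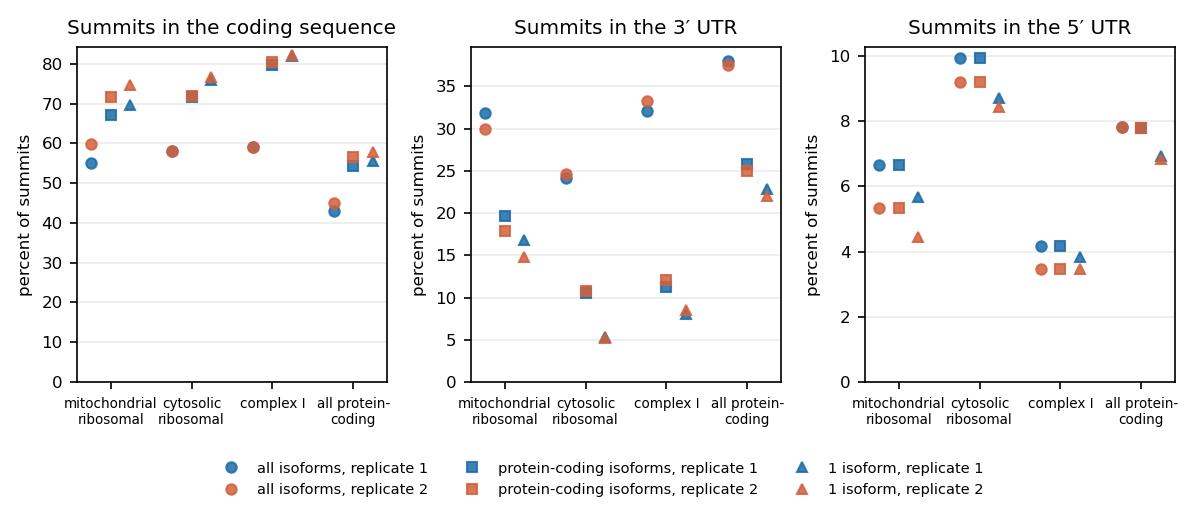
Percent of peak summits (vertical axes) in the coding sequence, the 3′ UTR and the 5′ UTR for mitochondrial ribosomal, cytosolic ribosomal, complex I and all protein-coding genes, with 1 point per library; circles use all isoforms, squares protein-coding isoforms and triangles 1 isoform. The 3′ UTR points of the mitochondrial ribosomal genes lie below those of all protein-coding genes under each definition and average 30.9% with all isoforms and 15.8% with 1 isoform.

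Every member had a coding-sequence peak found in both libraries on its representative isoform, while 37.3 percent of annotated protein-coding genes did. Of the 10066 annotated genes with any peak found in both libraries, 7455 did. So did 37 of 37 complex I genes and 75 of 78 cytosolic ribosomal protein genes. The median member had 21.9% of its coding bases under peaks of both libraries, with a range of 2.57 to 78.03%. The median was 64.6% for cytosolic ribosomal protein genes, 34.4% for complex I genes and 1.12% over 13039 protein-coding genes with peaks. Those 13039 include genes with no peak found in both libraries, whose share is 0 by construction. MRPS21 had the largest covered share, 78.03% of 264 coding bases. MRPS33 (63.2%), MRPS14 (57.6%), MRPL52 (57.5%) and MRPL51 (55.6%) came next, all with short coding sequences of at most 387 bases. MRPS35 had the smallest covered share, with 2.57% of 972 bases.

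By the largest peak in each library, the 5 strongest coding regions belonged to MRPS21, MRPL51 and MRPL17. The MRPS21 region printed above had 89 reads in replicate 1 and 91 in replicate 2, with its summit at codon 10, and its span began before the start codon. A second MRPS21 region, at chr1:150308060-150308185, had 63 reads in 2 peaks and 81 in 1 peak, with its summit at codon 54. The MRPL51 region printed above had 56 and 66 reads at codon 51, and another, at chr12:6492333-6492437, had 56 reads in 1 peak and 101 in 2 peaks, with its summit at codon 99. The MRPL17 region, at chr11:6683125-6683216 on the minus strand, had 31 reads in 1 peak and 81 in 2 peaks, with its summit at codon 50. By summed reads the MRPL55 region at chr1:228106696-228106900 on the minus strand, with 77 and 70 reads, also stood among them. Reads were within 10 of each other in the libraries for the first MRPS21 region and the first MRPL51 region, and further apart, with replicate 2 higher, for the other MRPS21 region, the other MRPL51 region and MRPL17.

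**Figure D3:**
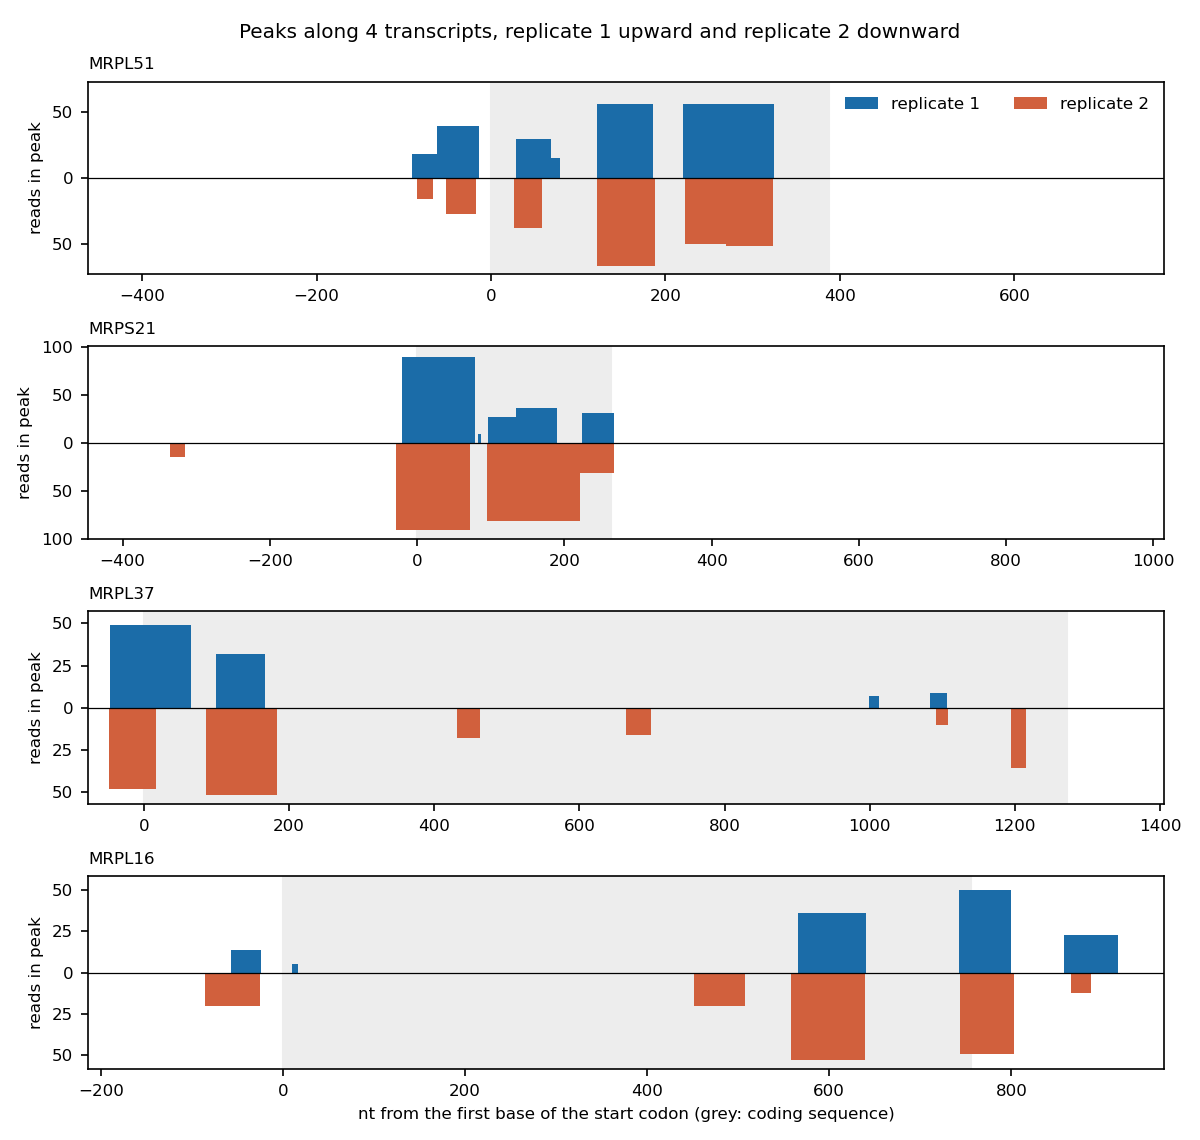
Peaks along the representative transcripts of MRPL51, MRPS21, MRPL37 and MRPL16 (horizontal axes, nt from the first base of the start codon; grey, coding sequence), with the reads of each peak upward for replicate 1 and downward for replicate 2. MRPL51 and MRPS21 show no peak after the coding sequence, MRPL37 has peaks of 49 and 48 reads around the start codon and of 32 and 52 reads after it, and MRPL16 has its peak of 50 and 49 reads across the stop codon.

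Within coding sequences the summits were spread along the whole length. The first 40 codons held 85 of 418 coding summits in replicate 1, 20.3% (exact interval 16.6 to 24.5), and 107 of 488 in replicate 2, 21.9% (18.3 to 25.9). An even spread would have put 19.99% and 19.94% there, which lies inside both intervals. The ratio to an even spread was 1.02 and 1.1 for the members, against 1.19 and 1.20 over all protein-coding genes. Cytosolic ribosomal protein genes had 1.17 and 1.09, and complex I genes 1.13 and 1.14. Summits lay within 15 nt of an exon-exon junction more often than an even spread would give, in 34.4% and 35.9% of cases against 19.6% and 19.7%. That ratio was 1.75 and 1.82 for the members and 1.62 and 1.64 over all protein-coding genes. It was 2.03 and 2.01 for cytosolic ribosomal protein genes and 1.84 and 1.65 for complex I genes. The 31 bases around coding summits held 32.8% and 32.2% G, while the coding sequences of the same genes held 27.5% and 27.3%. All protein-coding genes had a similar gap, with 32.8% and 33.1% G around summits and 26.9% and 27.0% in their coding sequences.

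**Figure D4:**
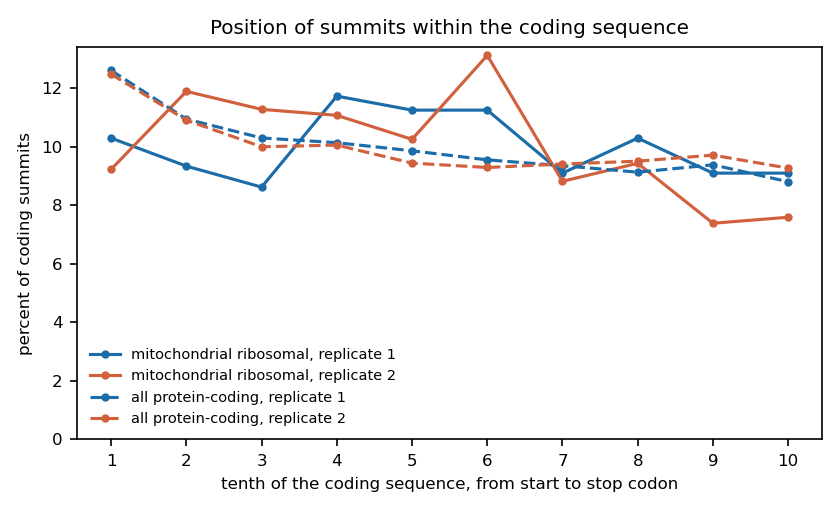
Percent of coding summits (vertical axis) in each of 10 equal stretches of the coding sequence from the start to the stop codon (horizontal axis), with solid lines for the mitochondrial ribosomal protein genes, dashed lines for all protein-coding genes, and 1 colour per library. The members' first stretch holds 10.3% and 9.22% of their summits, below the dashed lines at 12.6% and 12.5%.

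In 3′ UTRs, 34 of the 78 genes had a peak found in both libraries on the representative isoform, 43.6% (exact interval 32.4 to 55.3), while 26 percent of annotated protein-coding genes did. With protein-coding isoforms the count was 39 (28.2 percent of all), and with all isoforms it was 49 (32.8 percent of all). Annotated genes include those without peaks. Of the 10066 with any peak found in both libraries, 5196, 5624 and 6547 had one in the 3′ UTR by these 3 definitions. Those shares are larger than the members' and lie inside the members' exact intervals. With protein-coding isoforms, cytosolic ribosomal protein genes had 53.8% and complex I genes 51.4%, and on 1 isoform 28.2% and 29.7%. Of the 414 regions found in both libraries, 324 had their summit in coding sequence, 56 in the 3′ UTR, 18 in the 5′ UTR and 16 in introns of the representative isoform. The 56 regions had their summits a median of 127 nt after the stop codon, and 10 of them lay within 50 nt of it.

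MRPL16, a large-subunit protein whose bacterial relative lies near the peptidyl transferase centre, had the strongest 3′ UTR region. It held 50 and 49 reads, with its summit 8 nt after the stop codon, and a second region 123 nt after it had 23 and 12. The MRPL3 region had 38 and 42 reads, 216 nt after the stop codon. The MRPL20 region had 38 and 39 reads, 8 nt after it. MRPS25, a mitochondria-specific small-subunit protein, had 26 reads in 1 peak and 36 in 2 peaks at chr3:15052376-15052483 on the minus strand, 2 nt after the stop codon. Counted by the summits of single peaks, its recurrent 3′ UTR peaks on the representative isoform held 26 and 24 reads. MRPL33 had 24 and 18 reads at chr2:27779477-27779539 on the plus strand, 39 nt after it. For MRPL16, MRPL3, MRPL20 and MRPL33 the libraries differed by at most 6 reads, and for the whole MRPS25 region by 10. MRPL17 (20 and 20 reads, 90 nt after the stop codon) and MRPS26 (15 and 24 reads, 52 nt after it) had weaker ones.

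In a few genes the 3′ UTR held a large share of exonic reads, and in MRPL33 it held over 50% in both libraries. On the representative isoform MRPL34 had 74.6% and 48.6% there, MRPL33 65% and 55.4%, and MRPL16 57.0% and 39.6%. MRPL45, which anchors the ribosome to the inner membrane, had 58.7% and 37.5%, and MRPL50 had 48.6% and 48.0%. The libraries differed widely for MRPL34, MRPL16 and MRPL45, and hardly for MRPL50. At the other end, 28 genes had no 3′ UTR read in either library, among them MRPL51, MRPS21, MRPL37, MRPS34, MRPL55, MRPL18, MRPL24, MRPL39 and MRPL40. No such read was found in 2353 of 9852 protein-coding genes, 48 of 76 cytosolic ribosomal protein genes and 20 of 37 complex I genes. Over the members the median share of reads in the 3′ UTR was 8.87% and the median share of length 33.2%. In 71 of 78 genes, 91.0%, the read share was below the length share, as it was in 73.4% of 9852 protein-coding genes. Cytosolic ribosomal protein genes had 89.5% and complex I genes 91.9%. The exceptions among the members were MRPL16, MRPL20, MRPL33, MRPL34, MRPL38, MRPL45 and MRPS9, named after their values were seen. In replicate 2 alone, MRPL20 (23.5% of reads, 175 of 721 nt) and MRPL38 (10.7% of reads, 207 of 1888 nt) were below their length shares.

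**Figure D5:**
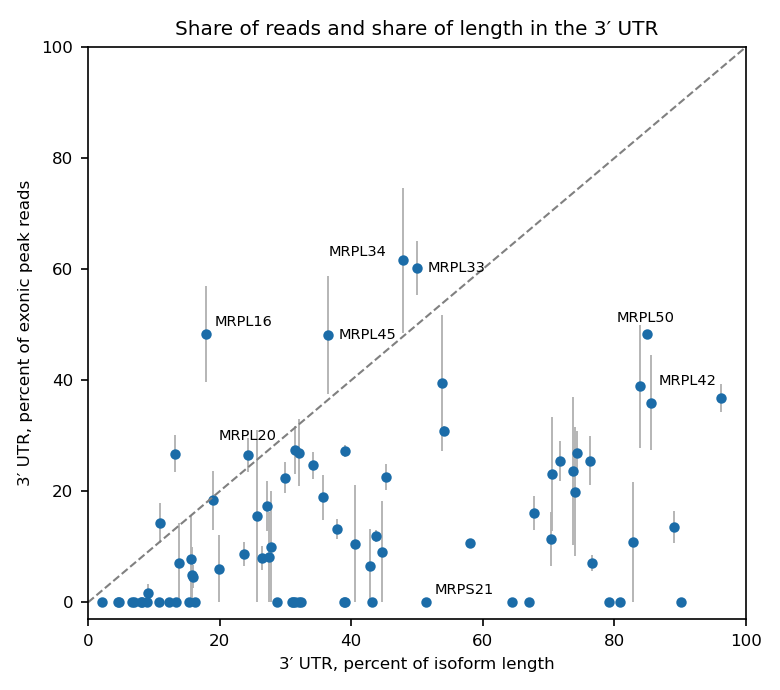
Share of exonic peak reads in the 3′ UTR (vertical axis, percent) against the 3′ UTR's share of the representative isoform (horizontal axis, percent), 1 point per gene at the mean of both libraries, with a line between the library values; the dashed line marks equal shares. All but 7 of the 78 genes lie below the dashed line, and 28 lie at 0.

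For several genes the 3′ UTR share was much larger by other sets of isoforms than on the representative one. MRPL49 had 65.9% and 79.1% of its exonic reads in 3′ UTRs of protein-coding isoforms and 30.9% and 23.0% on the representative isoform. Its strongest region, at chr11:65125553-65125614 on the plus strand with 23 and 51 reads, is codon 114 of that isoform. MRPL43 had 50% and 53.9% in 3′ UTRs of protein-coding isoforms, against 20.2% and 25% on the representative isoform. MRPL27, with 52.2% and 53.8%, had 23.2% and 31.8% there. MRPL21 had 93.0% and 95.2% with all isoforms and no read on the representative isoform, and MRPS14 had 82.7% and 80.8% and likewise none. MRPL10, with 100% and 92.1%, had 30% and 31.7% on the representative isoform, and MRPS7, with 87.1% and 80.6%, had 32.9% and 21.0%. MRPS35 had 77.3% and 86.4% with all isoforms, against 0% and 18.2% on the representative one, with 22 reads in each library. MRPL22 had 58.9% and 39.3% with all isoforms and none on the representative one, and MRPL42 had 79.4% and 74.8%, against 34.3% and 39.4%. MRPL32, also among the 10 genes with the most 3′ UTR reads by all isoforms, had a region of 9 and 19 reads 138 nt after the stop codon of its representative isoform. Of the 122 regions that were 3′ UTR by all isoforms, 56 were 3′ UTR on the representative isoform, 14 only in another protein-coding isoform and 52 only in isoforms of other types. All 52 lay in coding sequence of protein-coding isoforms.

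Peaks seldom covered 4 short 3′ UTR motifs, searched by their letters on the sense strand of the representative isoform. Peaks of both libraries covered 2.36% of the members' 3′ UTR bases. They covered 1.21% over all protein-coding genes and 2.02% over those with a peak found in both libraries. The AU-rich pentamer ATTTA, a core of elements known to shorten mRNA life, had 167 sites in 40 of the 78 genes, 51.3%, against 63.7% of all protein-coding genes. Of these sites 5 lay under peaks of both libraries, 2.99% (exact interval 0.979 to 6.85), against 0.92998% over all protein-coding genes and 1.52% over those with a peak found in both libraries. The poly(A) signal AATAAA had 1 of 141 sites covered, 0.709%, against 0.695% over all protein-coding genes and 1.21% over those with a peak found in both libraries. CCTCCC had no covered site among 61, which allows a share of up to 5.87%, against 0.0898% over all protein-coding genes and 0.153% over those with a peak found in both libraries. TGTGTGT had none among 17, which allows up to 19.5%, against 3.38% over all protein-coding genes and 5.53% over those with a peak found in both libraries. A motif match describes letters, and binding was not measured.

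Peaks also sat over starts and stops of translation. The start codon lay under peaks of both libraries in 14 of 78 genes, 17.9% (exact interval 10.2 to 28.3), while 4.75 percent of protein-coding genes with a representative transcript had this. The stop codon did in 16 of 78 genes, 20.5% (12.2 to 31.2), against 2.6 percent. These background shares include genes without peaks. Among the 10066 annotated genes with any peak found in both libraries, 936 had a covered start codon and 512 a covered stop codon. MRPS21, MRPL23, MRPL55 and MRPS18C had both codons covered. Cytosolic ribosomal protein genes reached 53.8% for start codons and 37.2% for stop codons, and complex I genes 27.0% and 21.6%. In the 5′ UTR, 13 members had a peak found in both libraries, 16.7% (exact interval 9.18 to 26.8), while 12.5 percent of annotated protein-coding genes did. Of the 10066 genes with any peak found in both libraries, 2503 had one there, a larger share than the members had. Both background shares lie inside the members' interval. Cytosolic ribosomal protein genes had 59.0% and complex I genes 21.6%. MRPL37, a mitochondria-specific large-subunit protein, had the 5′ UTR region with the largest peaks, of 49 and 48 reads, and its summit 18 nt before the start codon. MRPS16, a small-subunit protein with a bacterial relative, had 55 reads in 2 peaks and 59 in 3 peaks, with its summit 52 nt before it, and MRPL51 had 39 and 27 reads 36 nt before it. The MRPL55 region had 29 reads in 2 peaks and 37 in 1 peak, with its summit 12 nt before the start codon. Counted by the summits of single peaks, the 5′ UTR of that isoform held 11 reads in replicate 1 and 37 in replicate 2. Part of the 29 reads thus came from a peak with its summit outside the 5′ UTR.

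Most members had more reads in replicate 2, as most other genes did. The median ratio of reads, replicate 2 over replicate 1, was 1.28 for the 78 genes and 1.18 over 11355 protein-coding genes with peaks in both libraries, or 1.21 over the 8562 of these with 20 or more reads in at least 1 library. It was 1.03 for cytosolic ribosomal protein genes and 1.18 for complex I genes. The ratio was above 1 in 62 members, 79.5%, against 54.5% of cytosolic ribosomal protein genes, 70.3% of complex I genes and 65.6% of the 11355 protein-coding genes. MRPL58, a peptidyl-tRNA hydrolase built into the large subunit that releases stalled chains, had the largest ratio, with 77 reads in replicate 2 and 19 in replicate 1. MRPL46 had 90 and 42, MRPS2 had 96 and 47, MRPL34 had 151 and 74, and MRPL50 had 75 and 37. MRPL11 and MRPL30 lay at the other end, each with 27 reads in replicate 2 and 48 in replicate 1. With 1 library on each side these ratios have no replicate check, and no test between gene sets was made.

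A small part of the reads could not be given to a single gene. Peaks listed under another gene's entry too held 391 of 6414 reads, 6.10%, in replicate 1 and 401 of 8140, 4.93%, in replicate 2. Over all protein-coding genes the shares were 5.74% and 5.75%. For MRPS6 such peaks held 94 of 115 and 86 of 120 reads, shared with SLC5A3 and a processed transcript on the same strand. Most reads of MRPL38 (72 of 78, and 103 of 103) and MRPL30 (48 of 48, and 20 of 27) were likewise shared, as were all reads of MRPL53 with CCDC142 (35 and 42). So were most reads of MRPS17 (48 of 76, and 59 of 100) and MRPS28 (47 of 69, and 58 of 100). For MRPL46 the shared reads were 33 of 42 in replicate 1 and 13 of 90 in replicate 2. Both intronic regions of MRPL3, with 19 and 19 and with 9 and 11 reads, lay on SNORA58, a small nucleolar RNA gene on the same strand. Of 75 annotated pseudogenes of the family, 17 had peaks in replicate 1 with 218 reads and 20 in replicate 2 with 245. MRPS31P2 had 44 and 41 reads, against 32 and 38 for its parent gene MRPS31. MRPS21P1 had 32 and 38 reads and MRPL3P1 had 32 and 21, against 212 and 244 for MRPS21 and 249 and 244 for MRPL3. Reads shared by such near-identical copies are uncertain.

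Other nuclear genes of mitochondrial translation also carried peaks. Of 39 such genes listed for this purpose, 37 had a peak found in both libraries, while 50.4 percent of all annotated protein-coding genes did. MTRF1, a release factor relative, had no peak, and MRM1, an rRNA methyltransferase, had 5 and 3 reads in peaks that did not overlap. Medians were 46 and 67 reads with MTRF1 counted as 0, against 32 and 40 over all protein-coding genes with peaks. SLIRP, which stabilises mitochondrial mRNAs together with LRPPRC, led with 413 and 469 reads. TUFM, the mitochondrial elongation factor that delivers aminoacyl-tRNAs, had 358 and 290, and DHX30, a helicase of ribosome assembly, had 230 and 290. The 5 mitoribosome subunits with other names all had peaks in both libraries: GADD45GIP1 had 132 and 178 reads, PTCD3 130 and 151, AURKAIP1 101 and 142, DAP3 88 and 106, and CHCHD1 62 and 97. These sums lie within the range of the 78 genes.

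The label of the cells was checked against genes known in HEK293 cells. VIM had 494 and 517 reads, SOX4 638 and 992, NEFL 83 and 139, and NEFM 75 and 68. INA had 9 and 11 reads with no peak found in both libraries. Of 6 genes that mark blood, liver, pancreas, muscle or fibroblasts, 5 had no peak, and MYH7 had 3 reads in replicate 2.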

How the data were processed

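The deposited data were 1 list of peaks per library, named as CLIPper output, called by the authors in each library on its own. The submitters' processing notes name STAR 2.7.11, cutadapt 4.2 and UMI-tools 1.1.4, and the GRCh38 build. Which CLIPper version and annotation were used is not given in the sources used here. Each row's deposited score is a p-value, always under 0.05. The deposited name field gives a gene ID, a peak number and a read number, and the file holds a summit interval of 4 nt in 94.1% of peaks. The smallest peak held 3 reads. Library depth is unknown, so reads summed over peaks are not depth and no floor was computed for a gene without a peak. The names of the files state a filter that allowed reads with several loci.

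Gene symbols, types and regions came from GENCODE release 29 on GRCh38, read with Python 3.11.15 (pandas 2.3.3, numpy 2.4.6); intervals used scipy 1.17.1 and plots matplotlib 3.10.9. Each summit was placed in the 3′ UTR, coding sequence, 5′ UTR, non-coding exon or intron of its own gene, in that order, by all isoforms. The alternatives were protein-coding isoforms (added after seeing the data), 1 representative transcript, the middle of the peak, peaks of 5 reads or more, peaks of p at or under 1e-05, unshared peaks and an overlap of at least 50% of both peaks. Region assignment and the even-spread ratio were tested on positions drawn from the gene models themselves, with 1 representative transcript per gene. The other isoform sets were not tested in this way. Values are per library, with the mean and SD of 2 libraries, and shares have exact 95% Clopper-Pearson intervals that cover counting error only. With 1 group there was no comparison of conditions and no test. Where several isoform sets are printed, the 1-isoform values lead because its 3′ UTR cannot be coding sequence of the same isoform.

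Named genes were the 10 members with the most reads, the most reads per kb and the most reads in recurrent 3′ UTR peaks, the 5 with the largest and smallest 3′ UTR shares (20 or more exonic reads in each library), the 5 largest library ratios, the 5 strongest coding and 3′ UTR regions, and the 3 leading genes of the translation list. A planned motif result is not reported here. The members and lists were chosen with earlier results of these data known. Sequences are those of GENCODE release 29 transcripts.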

Additional observations from a re-analysis of the deposited data

How the results depend on the processing

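Of 71 values under 7 alternative settings, 40 moved by less than the spread between libraries or, for counts, stayed within 1.5 times, and 31 moved further. With 1 representative transcript, coding summits made up 72.1%, 3′ UTR summits 15.8%, 5′ UTR summits 5.05% and intronic summits 6.97%; the median 3′ UTR read share was 8.21%, the median 58.5 reads per kb, and the even-spread ratios 1.62 and 0.417. With protein-coding isoforms the values were 69.4% and 18.8%, a median of 11.1%, and ratios of 2.63 and 0.564, against 57.4%, 30.9%, 21.3%, 2.44 and 0.790 with all isoforms. The shifts with protein-coding isoforms follow from the construction, since the all-isoform order assigns coding exons to 3′ UTRs of other isoform types. With 1 transcript the reads per kb and the even-spread ratios also use the length of that transcript alone. The median reads per kb was 31.8 with all isoforms and with protein-coding isoforms.

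Peaks at or under p of 1e-05 gave 30 genes with a recurrent 3′ UTR peak against 49. They also gave 67.4% coding, 25.1% 3′ UTR and 1.84% intronic summits, a median 3′ UTR share of 6.5%, 21.4 reads per kb, ratios of 2.56 and 0.640, 23.4% of coding summits in the first 40 codons and 3.90% shared reads. Peaks of 5 reads or more gave 61.5%, 29.5% and 2.65% for the same regions and a median share of 19.5%. Without shared peaks, 3′ UTR summits were 32.4%, intronic summits 2.82% and shared reads 0. At an overlap of 50%, 50.5% of peaks were found in both libraries, against 71.1%. The cause of the shifts under these peak filters was not tested.

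Leaving out 1 library, which with 2 libraries says nothing on stability, gave ranges of 55 to 59.8% coding, 29.97 to 31.8% 3′ UTR and 4.13 to 5.83% intronic summits. Values that need both libraries could not be had this way. The first-codon values use the representative transcript in every setting. No paired analysis was possible because both libraries belong to 1 group. Depth is unknown, and the median member peak held 8 reads in replicate 1 and 9 in replicate 2.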
